A study of Mus musculus with 18 samples.

Results

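Of the 55414 genes in the count table of Neuro-2a (N2A) cells, a mouse neuroblastoma line, 53 were taken as mitosis and G2/M genes. They were listed by gene symbol. No measured value entered the list, although earlier results of these data were known when it was chosen. All 53 were matched to an Ensembl identifier and passed the filter on low counts that left 17901 genes for testing. By role they comprised 11 mitotic kinases, cyclins and their transcription factor Foxm1, 4 checkpoint and anaphase-promoting complex partners, 11 kinesin motors, 8 kinetochore and centromere proteins, 3 subunits of the chromosomal passenger complex, 7 condensin and mitotic chromosome proteins, 5 spindle proteins and 4 cytokinesis proteins. The study asked which transcripts change when FMRP, the RNA-binding protein encoded by Fmr1, or Zfp598, the sensor of collided ribosomes that starts no-go decay, is depleted. N2A cells were transfected with 1 of 6 siRNAs, and total RNA was taken 72 h later, depleted of rRNA and sequenced. There were 3 conditions, called Scramble KD for the negative control siRNAs, Fmr1 KD, and Zfp598 KD. Each had 2 siRNAs, named A and B, and 3 libraries were made for each siRNA, 18 in all. All libraries came from the same parental line with no genetic change, so a knockdown here is a partial depletion, and the letters are names only: nothing in the sources ties an siRNA A of one condition to an siRNA A of another.

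Genes of mitosis are transcribed in a wave that begins in S phase and peaks in G2 and M. In resting and G1 cells the DREAM complex holds many of them off, and in G2 the MYBL2-MuvB complex and FOXM1 switch them on, through a promoter element called the cell cycle genes homology region (CHR) and neighbouring CCAAT boxes. Cyclin B and CDK1 then drive entry into mitosis, Aurora and Polo-like kinases build the spindle, kinetochores and kinesins attach and move the chromosomes that condensin has compacted, the checkpoint restrains the anaphase-promoting complex until attachment is complete, and the cytokinesis proteins divide the cell. Since these RNAs are abundant only in part of the cycle, their level in a culture reflects how many cells are cycling as well as the RNA per cell, and in bulk RNA fewer cells in G2/M cannot be told apart from less of each RNA in every cell.

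Libraries held 7674724 to 15414590 counts. The silenced transcripts were reduced: Fmr1 fell by 1.60 (SE 0.121) on the log2 scale with siRNA A and by 1.30 (SE 0.117) with siRNA B, and Zfp598 fell by 1.54 (SE 0.123) and 1.52 (SE 0.120), each against the Scramble siRNA of the same letter. Of the neural markers, Tubb3 ranged from 302 to 543 CPM, the counts scaled to the size of each library, whereas Nefl and Nefm were at or near 0 (at most 0.405 CPM). Libraries of Zfp598 siRNA A stood apart: the most counted feature took 15.2% of counts in replicate 2 and 25.8% in replicate 3, against 5.00% to 11.1% in the others. Fmr1 siRNA B replicate 1 also stood apart, with 9 of the 12 matched pluripotent stem cell markers at their highest there (Nanog 7.42 CPM against at most 0.592 CPM in the other 17 libraries, and Tfcp2l1 24.7 CPM against at most 2.24 CPM). Several comparisons that use these libraries are also given without them, some only within a range over single libraries left out. Leaving out both of these Zfp598 A libraries leaves only replicate 1 of that siRNA. From that fit of the 6 siRNA groups only effect sizes are given. The study describes 3 knockdowns for each siRNA, all in the same line. The p-values measure the spread between knockdowns of 1 line.

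Compared per kilobase of exon, the only scale on which levels of different genes are set side by side, the members spanned a wide range. Exon length here joins all annotated exons of a gene over its transcripts. It can exceed the length of the RNA made, so the order of genes depends in part on the annotation. Racgap1, which with Kif23 forms the centralspindlin complex of the midzone, was highest at 85.3 ± 8.07 CPM per kilobase (SD over 18 libraries), followed by Top2a, the topoisomerase that untangles sister chromatids, at 60.5 ± 21.3. Ccnb1, which encodes cyclin B1, averaged 25.9 ± 5.75 CPM per kilobase, the condensin ATPase subunit Smc4 21.1 ± 5.47 and Cdk1 18.6 ± 6.30. The lowest level was that of the kinesin Kif18a, at 2.41 ± 0.761 CPM per kilobase. The spread over libraries differed too: the coefficient of variation was 9.45% for Racgap1 and 10.9% for Bub3, but 36.9% for Kif15.

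Levels differed between siRNAs of the same condition. In group means, Scramble siRNA B was the highest of the 6 siRNAs in 36 of 53 members and Fmr1 siRNA A the lowest in 47. This order was counted over the members only and not over all genes. By the median rank of the members, Fmr1 siRNA A came first from the bottom, then Scramble A, Zfp598 A, Zfp598 B, Fmr1 B and Scramble B. For each library, the median over members of the log2 ratio to the gene's mean over 18 libraries was −0.67 to −0.59 in Fmr1 siRNA A, −0.50 to −0.26 in Scramble A, −0.18 to 0.06 in Zfp598 A, 0.03 to 0.15 in Zfp598 B, 0.14 to 0.34 in Fmr1 B and 0.35 to 0.56 in Scramble B. On this measure the 3 libraries of each of the lowest 2 siRNAs lay below all the others and Scramble B above all the others, while the range of Zfp598 B overlapped those of Zfp598 A and Fmr1 B.

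**Figure D1:**
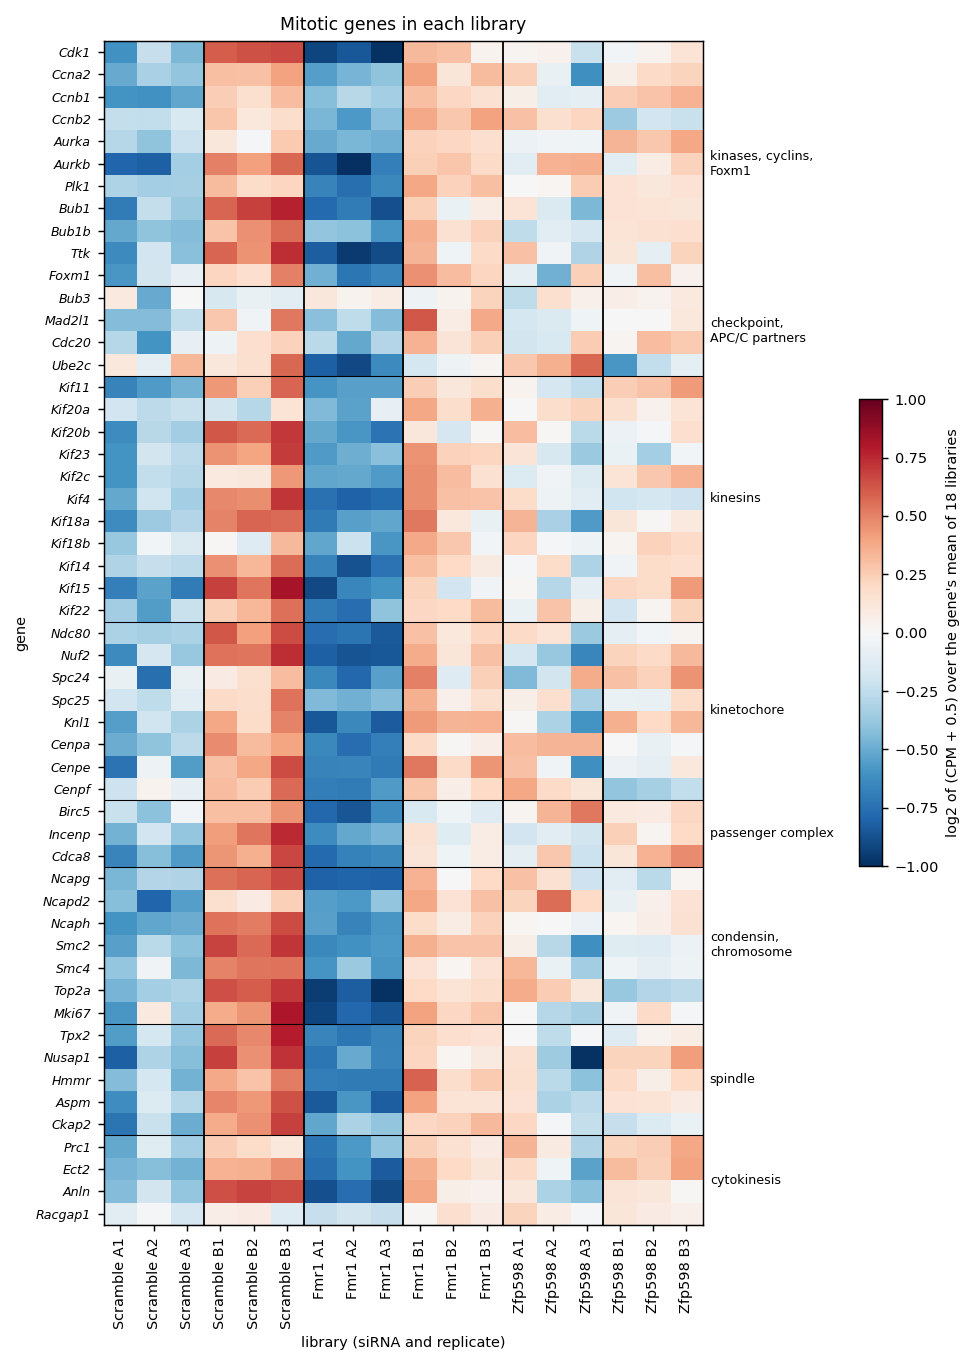
Level of the 53 mitotic genes (rows, by role) in the 18 libraries (columns, by siRNA and replicate), as the log2 of CPM plus 0.5 over the gene's mean; red is above and blue below the mean. The Scramble A and Fmr1 A columns are mostly blue, with median values of −0.50 to −0.26 and −0.67 to −0.59. Scramble B columns are mostly red, at 0.35 to 0.56. Bub3 and Racgap1 are mostly pale, with Bub3 at its lowest in Scramble A replicate 2 (82.8 CPM).

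Between the 2 control siRNAs, 47 of 53 members were higher with Scramble B than with Scramble A and none was lower. A gene was called changed at an adjusted p below 0.05 in edgeR's quasi-likelihood test (Benjamini-Hochberg adjustment over all 17901 genes), and by that rule 10.4% of all genes tested were higher and 12.2% lower. The members' median log2 fold change was 0.82, against 0.00 over all genes, and 11 members passed 2-fold, against 1.50% of genes called higher by over 2-fold. In 48 members all 3 Scramble B libraries lay above all 3 Scramble A libraries, which 19.2% of all genes tested also did. Markers of neural cells moved with this comparison: of 16 tested, 8 were lower with Scramble B and none higher, and the summed level of all 19 was 2560 to 2736 CPM in Scramble A and 1734 to 1975 CPM in Scramble B. The 12 pluripotent markers summed to at most 111 CPM in Scramble A and 151 to 167 CPM in Scramble B, most of it Lin28a, with Pou5f1 and Zfp42 at most 0.0852 CPM outside Fmr1 siRNA B replicate 1. The part of these markers in the members' change was not tested.

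Fmr1 KD gave a rise with siRNA B as well. With Fmr1 B 52 of 53 members were higher than with Fmr1 A and none was lower, against 13.3% of all genes called higher. The median was 0.82, 14 members passed 2-fold (3.23% of all genes tested), and in 52 members the 2 siRNAs did not overlap (22.3% of all genes tested). The Scramble and the Fmr1 comparison of siRNA B with A use different libraries. In both, 47 members were higher, a joint count not made over all genes. Across the 53 members, which are not independent, the log2 fold changes had a Pearson correlation of 0.49 (Spearman 0.34) as a description. Over all genes the Pearson correlation was 0.07. With the Zfp598 comparison, the members' Pearson correlation was 0.24 for Scramble and 0.03 for Fmr1. With Fmr1 siRNA B replicate 1 left out, 52 members were again higher and the median was 0.77, although that library was the highest of its 3 in 44 members. In Fmr1 KD the neural markers summed to 1749 to 1886 CPM with A and 2012 to 2290.0 CPM with B, with 5 of 16 higher and none lower.

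In Zfp598 KD the shares of members called were near those of all genes, and 36 of 53 members were not called. Zfp598 B was higher than Zfp598 A in 11 members (15.6% of all genes were called higher) and lower in 6 (19.7% of all genes were called lower). The median was 0.09, and none passed 2-fold, which 3.26% of all genes did upward and 4.31% downward. Zfp598 B lay clear above Zfp598 A in 12 members (19.7% of all genes) and clear below in 7 (20.7% of all genes). The 11 that rose with Zfp598 B, Aurka, Bub1b, Ccnb1, Ect2, Incenp, Kif11, Kif15, Kif2c, Knl1, Nuf2 and Nusap1, were also higher in the Scramble and Fmr1 comparisons. As 47 of 53 members were higher in both of those, most of any 11 members would overlap in this way. The 6 that fell with Zfp598 B were Ccnb2, Cenpa, Cenpf, Ncapd2, Top2a and Ube2c. With Zfp598 A replicates 2 and 3 left out together, only replicate 1 of Zfp598 A remained, and the median was 0.007. With only the compared groups fitted the count was 6 higher and 5 lower, with 8.90% and 11.8% of all genes.

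**Figure D2:**
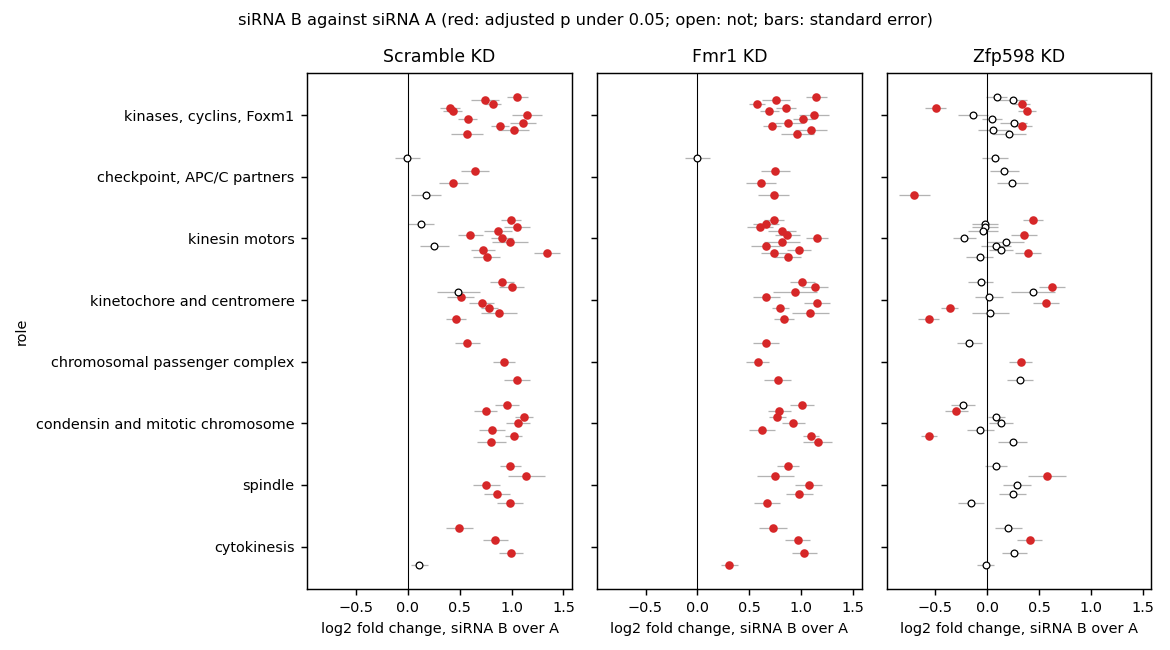
Log2 fold change of siRNA B over siRNA A (horizontal axis) for each of the 53 members, by role (vertical axis), with a panel for each condition, red points for an adjusted p below 0.05, open points for the rest and bars for the standard error. Red points number 47, 52 and 17; in Scramble and Fmr1 KD all lie right of 0, and in Zfp598 KD 11 lie right and 6 left.

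Among the kinases and cyclins, all 11 were higher with siRNA B in Scramble KD (median 0.82) and in Fmr1 KD (median 0.88), and in Zfp598 KD 3 were higher and 1 lower. Cdk1, the kinase partner of cyclins A and B, was at 71.0, 92.6 and 79.5 CPM in the Scramble A libraries, 165, 169 and 172 CPM in Scramble B, 57.3, 60.1 and 54.5 CPM in Fmr1 A, 136, 133 and 111 CPM in Fmr1 B, 111, 112 and 92.7 CPM in Zfp598 A and 106, 111 and 119 CPM in Zfp598 B. Scramble B and Fmr1 B lay above their A counterparts without overlap, whereas the Zfp598 siRNAs overlapped. The log2 fold changes of Cdk1, siRNA B over A, were 1.05 (SE 0.101, adjusted p = 3.53e-07 by edgeR) in Scramble KD, 1.14 (SE 0.102, adjusted p = 1.06e-07) in Fmr1 KD and 0.09 (95% interval −0.12 to 0.30) in Zfp598 KD.

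Ccnb1 was at 73.1, 72.9 and 77.3 CPM with Scramble A and 132, 124 and 137 CPM with Scramble B, at 82.5, 91.4 and 87.9 CPM with Fmr1 A and 137, 129 and 123 CPM with Fmr1 B, and at 116, 103 and 104 CPM with Zfp598 A and 132, 136 and 142 CPM with Zfp598 B. The siRNAs of a condition did not overlap in any of the 3 conditions, and the log2 fold changes were 0.82, 0.57 and 0.34. Ccnb2, which encodes cyclin B2, was higher with B in the first 2 conditions (0.41 and 0.85) but fell by 0.50 in Zfp598 KD (SE 0.0992, adjusted p = 7.14e-04 by edgeR). Aurkb, the kinase of the chromosomal passenger complex, rose by 1.15 and 1.12 on the log2 scale in Scramble and Fmr1 KD. Plk1, the Polo-like kinase of spindle assembly, rose by 0.58 and 1.02, and Foxm1, the transcription factor that activates G2/M genes, by 0.57 and 0.96.

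All 7 condensin and chromosome members were higher in Scramble KD and in Fmr1 KD, with medians of 0.96 and 0.92, and in Zfp598 KD Ncapd2 and Top2a were lower. Top2a was at 399, 437 and 447 CPM with Scramble A and at 864, 839 and 901 CPM with Scramble B, at 286, 312 and 277 CPM with Fmr1 A and 635, 608 and 625 CPM with Fmr1 B, and at 713, 660 and 596 CPM with Zfp598 A and 424, 450 and 461 CPM with Zfp598 B. In Zfp598 KD the order of the siRNAs was thus inverted, with all A libraries above all B libraries, and Top2a fell by 0.56 (SE 0.0797, adjusted p = 2.55e-05 by edgeR), or by 0.67 with Zfp598 A replicates 2 and 3 left out, while in Scramble and Fmr1 KD it rose by 1.02 and 1.09. Mki67, which encodes a protein that coats mitotic chromosomes and is used as a proliferation marker, rose by 0.80 (SE 0.141) in Scramble KD and by 1.16 (SE 0.143) in Fmr1 KD, where it was the largest rise of all members.

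**Figure D3:**
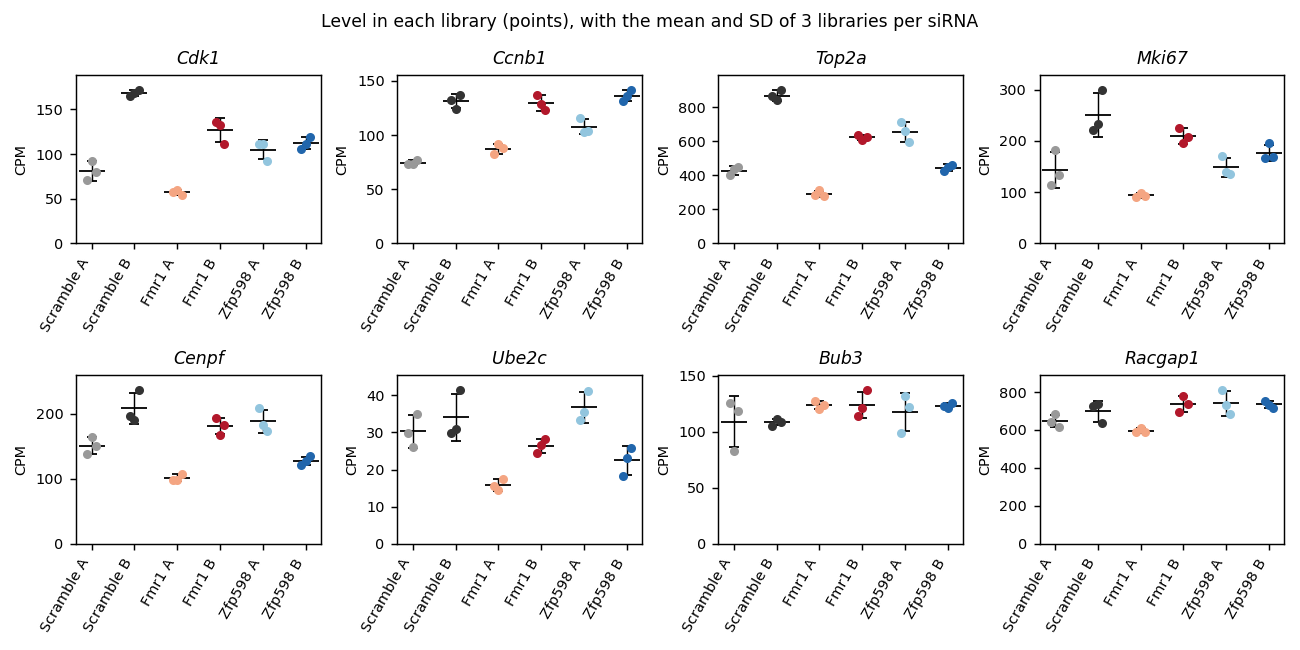
CPM (vertical axis) of 8 members in each of the 18 libraries, by siRNA (horizontal axis), with points for libraries and lines for the mean and SD of 3. Cdk1, Ccnb1, Top2a and Mki67 are higher with siRNA B than A in Scramble and Fmr1 KD, Top2a falls from A to B in Zfp598 KD, and Bub3 and Racgap1, with coefficients of variation of 10.9% and 9.45%, vary least of the 53.

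Of the 11 kinesins, 9 were higher with Scramble B and 11 with Fmr1 B, and 3 with Zfp598 B. The spindle bipolarity motor Kif11 was higher with siRNA B in all 3 conditions, by 1.00, 0.74 and 0.44 on the log2 scale, and Kif15, which acts beside Kif11, by 1.34, 0.73 and 0.40. Of the 8 kinetochore and centromere members, 7 rose in Scramble KD and 8 in Fmr1 KD; in Zfp598 KD Nuf2 rose by 0.63 and Knl1, the platform for checkpoint proteins, by 0.57, whereas Cenpf fell by 0.56 and Cenpa, the centromeric histone, by 0.36. The 5 spindle members rose in both Scramble and Fmr1 KD, with medians of 0.98 and 0.87.

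In Scramble KD 6 members were not called between the letters, and in Fmr1 KD 1, Bub3. Bub3, a subunit of the spindle checkpoint complex, was at 126, 82.8 and 118 CPM with Scramble A and 105, 111 and 109 CPM with Scramble B, and at 127, 120.5 and 124 CPM with Fmr1 A and 114, 121 and 137 CPM with Fmr1 B. The libraries of the 2 letters overlapped in both conditions. The log2 fold changes were −0.00 (95% interval −0.26 to 0.25) and −0.00 (95% interval −0.25 to 0.25). The other 5 not called in Scramble KD were Kif18b (0.26), Kif20a (0.13), Racgap1 (0.11), Spc24 (0.49) and Ube2c (0.17); all 5 were higher with B in Fmr1 KD. Spc24 had the lowest counts of the members, at a mean of 122 per library, and its interval in Scramble KD ran from 0.05 to 0.92. Ube2c, the ubiquitin-conjugating enzyme that works with the anaphase-promoting complex, was lower with siRNA B in Zfp598 KD, by 0.70 (SE 0.149), at 33.4, 35.5 and 41.3 CPM against 18.3, 23.2 and 25.8 CPM.

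Promoters were read because so many members moved together, at the annotated start of each gene in GRCm39, from 250 bases before to 50 after. A CHR (TTTGAA or its complement TTCAAA, or TTCGAA, on either strand) was found in 31 of 53 members, or 58.5%, against 15.4% of the promoters of 12796 tested protein-coding genes. A CCAAT box (CCAAT, or ATTGG on the other strand) was found in 35 members, or 66%, against 39.6%, and both motifs in 25 members, or 47.2%, against 6.6%. Members with a CHR had a median log2 fold change of 0.84 and those without 0.81 in Scramble KD, and 0.81 against 0.84 in Fmr1 KD. The 120 bases before the start of 5 members are given 5′ to 3′ on the coding strand, with CHR and CCAAT letters in capitals; Cdk1, Top2a, Kif23 and Ect2 were higher with siRNA B in Scramble and Fmr1 KD, and Bub3, which holds both motifs, was not called in either. They lie at chr10:69188769-69188888 (minus strand), chr11:98915042-98915161 (minus), chr9:61854074-61854193 (minus), chr3:27208030-27208149 (minus) and chr7:131161962-131162081 (plus).
Cdk1: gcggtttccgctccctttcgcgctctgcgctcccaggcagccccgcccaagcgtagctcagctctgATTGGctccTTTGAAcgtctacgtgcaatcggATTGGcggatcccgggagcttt
Top2a: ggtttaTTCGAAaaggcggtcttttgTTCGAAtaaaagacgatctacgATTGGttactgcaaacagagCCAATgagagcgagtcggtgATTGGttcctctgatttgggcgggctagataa
Kif23: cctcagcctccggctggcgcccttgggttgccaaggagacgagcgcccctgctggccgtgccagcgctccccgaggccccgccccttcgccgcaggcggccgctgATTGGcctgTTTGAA
Ect2: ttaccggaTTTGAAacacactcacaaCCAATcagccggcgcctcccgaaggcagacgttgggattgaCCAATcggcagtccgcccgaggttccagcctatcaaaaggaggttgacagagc
Bub3: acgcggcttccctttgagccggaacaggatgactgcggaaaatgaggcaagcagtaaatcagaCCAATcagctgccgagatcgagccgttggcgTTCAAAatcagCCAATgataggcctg
A match of letters is a description of these sequences and not a measured binding site. The 5 printed stretches all hold both motifs and do not represent the members as a whole. Ccnb2, Bub1 and Cenpf, for example, were among the 31 members with a CHR but hold none in the 120 bases before the start.

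Knockdown was next set against Scramble, A against A and B against B, to ask what depletion of each protein did. Called members were mostly lower with both Fmr1 siRNAs, higher with Zfp598 A and lower with Zfp598 B. With Fmr1 A, 20 members were lower than with Scramble A and 1 was higher, against 13.6% of all genes called lower and 10.0% higher. The median was −0.26, and all Fmr1 A libraries lay below all Scramble A libraries in 25 members (20.1% of all genes). With Fmr1 B, 19 were lower than with Scramble B and 1 higher, against 11.3% lower and 11.3% higher. The median was −0.25, and Fmr1 B lay clear below in 24 members (22.3% of all genes). The largest falls with Fmr1 A were Ube2c (−0.93, SE 0.149), Mki67 (−0.61), Cenpf (−0.57), Birc5 (−0.55) and Top2a (−0.55), and the one rise was Ccnb1 (0.23). Ube2c was at 29.8, 26.0 and 35.0 CPM with Scramble A and at 15.5, 14.5 and 17.5 CPM with Fmr1 A, with no overlap. With Fmr1 B the largest falls were Kif15 (−0.69, SE 0.120), Kif20b (−0.65), Bub1 (−0.60), Incenp (−0.54) and Nusap1 (−0.53), and the one rise was Kif20a (0.41). Members called lower with both siRNAs were Anln, Birc5, Bub1, Cdk1, Cenpa, Ncapg, Ndc80, Nuf2, Top2a, Tpx2 and Ttk, 11 in all. This joint count was made over the members only and not over all genes. With Fmr1 B replicate 1 left out, 18 were lower with Fmr1 B; without Fmr1 B replicate 2 the count was 11 (10 lower and 1 higher), and without Scramble B replicate 1 or replicate 3 it was 13. Without Scramble B replicate 3 the median was −0.12. The neural markers moved with these comparisons too: of 16 tested, 9 were lower and none higher with Fmr1 A (median −0.46), and 8 were higher and none lower with Fmr1 B (median 0.32). Their part in the members' values was not tested.

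With Zfp598 A, 19 members were higher than with Scramble A and none lower, against 6.30% of all genes called higher. The median was 0.32, all 53 point values were above 0, and Zfp598 A lay clear above in 23 members (9.87% of all genes). With Zfp598 B, 29 were lower than with Scramble B and none higher, against 14.4% of all genes called lower, with a median of −0.37, and Zfp598 B lay clear below in 35 members (24.3% of all genes). The largest rises with A were the condensin subunit Ncapd2 (0.93, SE 0.111), Aurkb (0.85), Cenpa (0.72), Top2a (0.62) and Cdca8 (0.56). The largest falls with B were Top2a (−0.96, SE 0.0800), Smc2 (−0.76), Kif4 (−0.76), Ncapg (−0.72) and Cenpf (−0.71). The same 13 members, Aurkb, Ccnb2, Cdk1, Cenpa, Cenpf, Ckap2, Kif15, Kif20b, Kif22, Kif4, Ncapg, Ncaph and Top2a, were higher with A and lower with B. Again the joint count was made over the members only. With Zfp598 A, 27 members were higher when replicate 3 was left out and 11 without replicate 2. When only the compared groups were fitted 2 were higher, and that fit called 0.279% of all genes higher. With replicates 2 and 3 left out together, only replicate 1 remained, which was the highest of the 3 in 32 members. The median was then 0.46. Of the neural markers, 2 were higher and 2 lower with Zfp598 A (median −0.02), and 9 were higher and 2 lower with Zfp598 B (median 0.42). Their part in the members' values was not tested.

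The difference between siRNAs in the knockdown effect was tested directly, with each siRNA set against the Scramble siRNA of its own letter. The letters tie nothing across conditions, so the other pairing was equally possible. Each value is the B against A difference of the knockdown minus that of Scramble KD. Compared with each other with no Scramble library, Zfp598 B and A differed by 11 members higher and 6 lower (median 0.09). Fmr1 B and A differed by 52 higher (median 0.82). For Zfp598, 35 members had a lower effect with siRNA B than with A and none a higher one (11.9% of all genes were called lower), 10 by over 2-fold (3.64%), with a median difference of −0.73. With Zfp598 A replicates 2 and 3 left out, which leaves replicate 1 as the only Zfp598 A library, the median difference was −0.76. The largest was Top2a, at −1.58 (SE 0.113, adjusted p = 8.95e-09 by edgeR), or −1.69 without those libraries, and the value of Bub3 was 0.08. For Fmr1 the effect differed in 5 members: it was higher with B for Kif20a (0.53), Ccnb2 (0.44) and Plk1 (0.44), and lower for Kif15 (−0.61) and Ncaph (−0.35), against 12.2% of all genes called higher and 9.65% lower. For members not called, the interval still allowed sizeable differences: for Cdk1 in Fmr1 KD the 95% interval ran from −0.21 to 0.39. The count of 5 ranged from 2 to 9 with each single library left out.

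All same-letter comparisons share their Scramble libraries with the comparison of letters within Scramble KD, and the choice of Scramble siRNA set the direction. Against the Scramble siRNA of the other letter, Fmr1 A had 51 members lower (median −1.11), Fmr1 B 46 higher (0.59), Zfp598 A 33 lower (−0.49) and Zfp598 B 35 higher and 1 lower (0.44). Of all genes, 16.3%, 8.29%, 11.6% and 13.8% were called in the same 4 comparisons and directions, with 16.9% lower for Zfp598 B. Against both Scramble siRNAs together, Fmr1 A had 49 lower (−0.69), Fmr1 B 14 higher (0.18), Zfp598 A 2 higher and 3 lower (−0.05) and Zfp598 B 9 higher and 5 lower (0.06). The shares of all genes were 15.5% lower for Fmr1 A, 10.1% higher for Fmr1 B, 10.9% higher and 7.23% lower for Zfp598 A and 13.8% higher and 16.1% lower for Zfp598 B. Only for Fmr1 A did the median keep its sign under all 3 choices, and Ccnb1 changed sign even there, from 0.23 against Scramble A to −0.18 against both.

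**Figure D4:**
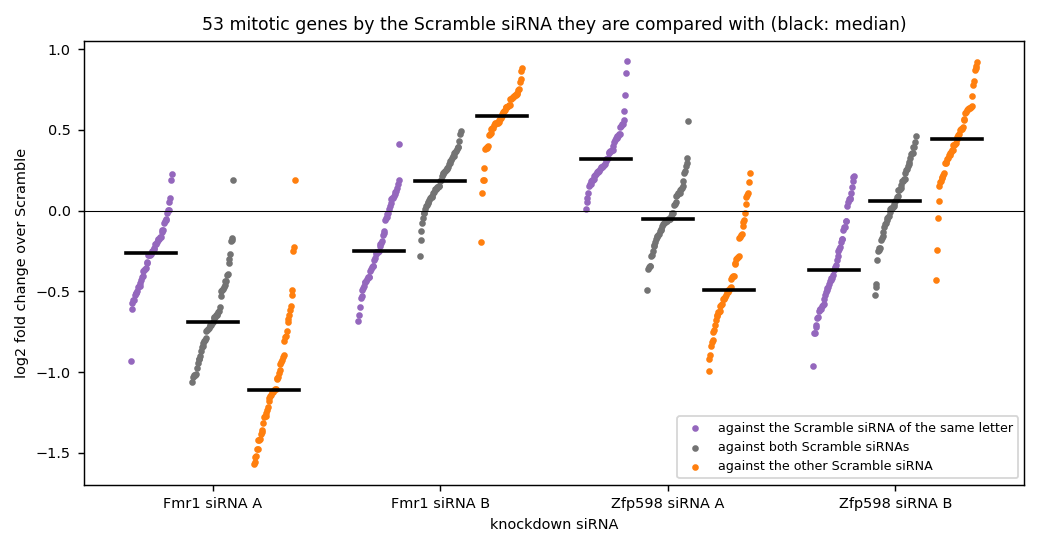
Log2 fold change over Scramble (vertical axis) of each of the 53 members for the 4 knockdown siRNAs (horizontal axis), against the Scramble siRNA of the same letter (purple), both Scramble siRNAs (grey) or the other Scramble siRNA (orange), with black lines for medians. Medians run from −1.11 to 0.59; Fmr1 A has medians of −0.26, −0.69 and −1.11, and the other siRNAs change sign.

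The model pooled by condition sets the spread between siRNAs into the error. It counts the 6 libraries of a condition as replicates, although they come from 2 siRNAs, so its p-values do not take the siRNA as the unit. By this model no member was called for Fmr1 KD or Zfp598 KD against Scramble KD. The medians were −0.26 and −0.08. With each library left out they ran from −0.37 to −0.12 in Fmr1 KD and from −0.15 to 0.05 in Zfp598 KD, which includes a change of sign, with 0.05 without Scramble B replicate 3. In Fmr1 KD, 6 members had an unadjusted p below 0.05, and the smallest adjusted p was 0.0630 for Ube2c (−0.61, SE 0.193, by edgeR); DESeq2 called 2. In Zfp598 KD, no member had an unadjusted p below 0.05, the smallest adjusted p was 0.292 for Kif20a, and DESeq2 called none. By edgeR 2.73% of all genes tested were called higher and 3.80% lower in Fmr1 KD, and 0.916% and 1.04% in Zfp598 KD. In the direct comparison of the knockdowns, Birc5, the survivin subunit of the chromosomal passenger complex, was lower in Fmr1 KD than in Zfp598 KD by 0.62 (SE 0.167, adjusted p = 0.0323 by edgeR), the only member of 53 called, against 3.11% of all genes called lower and 2.27% higher. Birc5 was at 28.6, 25.0 and 32.9 CPM with Scramble A, 41.4, 41.4 and 46.0 CPM with Scramble B, 19.2, 18.3 and 21.5 CPM with Fmr1 A, 30.1, 32.5 and 30.6 CPM with Fmr1 B, 34.1, 42.4 and 48.6 CPM with Zfp598 A and 35.8, 35.5 and 38.8 CPM with Zfp598 B. All 6 Fmr1 KD libraries lay below all 6 Zfp598 KD libraries, and the Birc5 call was lost when any of 6 single libraries was left out, or with Zfp598 A replicates 2 and 3 left out.

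Within Zfp598 A the members varied with the replicate. Replicate 1 was the highest of the 3 in 32 members and replicate 3 the lowest in 33. Such an order was not particular to Zfp598 A. Replicate 3 of Scramble B was the highest of its 3 in 45 members, replicate 1 of Fmr1 B in 44 and replicate 3 of Zfp598 B in 35. These counts were made over the members only and not over all genes. In Zfp598 A the log2 ratio of replicate 3 to replicate 1 was lower in longer members. Its Spearman correlation with exon length was −0.34 over the 53 members, against −0.01 over all genes, as a description. The share of the most counted feature also differed between the Zfp598 A replicates. With that feature left out of the table, 19 members were called for Zfp598 A against Scramble A, 16 for Zfp598 B against A and 34 for the difference in Zfp598 effect, beside 19, 17 and 35 with it.

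Other genes of the cell cycle, in lists grouped by function, were compared between siRNA B and A, beside 10.4%, 13.3% and 15.6% of all genes called higher in Scramble, Fmr1 and Zfp598 KD and 12.2%, 11.1% and 19.7% lower. Of 50 further mitotic genes, 40 were higher and 1 lower in Scramble KD (median 0.76), 38 and 1 in Fmr1 KD (0.65), and 14 and 10 in Zfp598 KD (0.13). Zwint, a kinetochore protein, was the exception in the first 2, lower by 0.51 and 0.73. Of 37 genes of DNA replication and the G1/S transition, 31, 27 and 21 were higher, and 0, 0 and 4 lower, with medians of 0.78, 0.50 and 0.42. Mybl2, the activator of G2/M promoters, was higher in all 3 conditions, by 1.05, 1.04 and 0.79. Of 16 genes listed for the anaphase-promoting complex, 6 were higher and 1 lower in Scramble KD (median 0.18). In Fmr1 KD 2 were higher and 1 lower (0.02), and in Zfp598 KD 2 and 3 (−0.04). The list includes Fbxo5, an inhibitor of the complex and not a subunit. Fbxo5 had the largest rise of this list in Scramble KD (0.98) and in Fmr1 KD (0.74). Of 15 genes listed for the DREAM and MYBL2-MuvB complexes 10, 5 and 5 were higher and 0, 1 and 1 lower, with medians of 0.49, 0.15 and 0.17. Among these 15 were Nfya and Nfyc, which encode subunits of a CCAAT-binding factor and belong to neither complex. Of 10 cohesin genes 4 were higher in each of the 3 conditions and 0, 1 and 1 lower, with medians of 0.16, 0.19 and 0.22. Of 6 cyclin-dependent kinase inhibitors tested, 2, 2 and 0 were higher and 0, 1 and 2 lower, with medians of 0.11, 0.21 and −0.14. The largest rise was Cdkn2b (0.83) in Scramble KD and Cdkn2d (1.26) in Fmr1 KD. The largest fall in Zfp598 KD was Cdkn2a (−1.08). Cdkn1a, which encodes the p21 inhibitor of cyclin-dependent kinases, was at 0.10 and 0.02 on the log2 scale in Scramble and Zfp598 KD, neither called, and fell by 0.36 in Fmr1 KD.

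**Figure D5:**
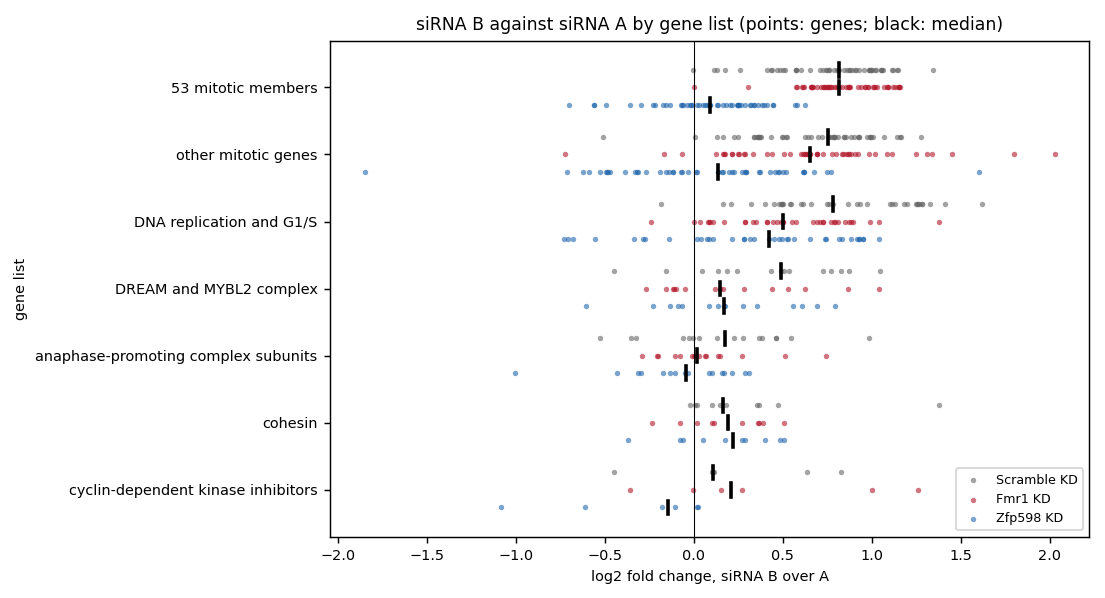
Log2 fold change of siRNA B over siRNA A (horizontal axis) for the 53 members and 6 other gene lists (vertical axis), in Scramble (grey), Fmr1 (red) and Zfp598 (blue) KD; points are genes and black lines medians. The members and the other mitotic genes lie to the right of 0 in Scramble and Fmr1 KD, with medians of 0.82 and 0.82 for the members and 0.76 and 0.65 for the other mitotic genes, and near 0 in Zfp598 KD at 0.09 and 0.13.

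Counts of some members are uncertain. The exons of 29 members overlap another annotated gene, 27 of them on the opposite strand, and the strand setting of the counting is not given in the sources used here, so reads of such partners cannot be told apart. Ccnb1, Ccnb2 and Kif22 also have annotated pseudogenes that could take reads.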

How the data were processed

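Gene counts were deposited as one table of the 18 libraries. Per the labels and the study's methods, the authors trimmed reads with Trim Galore, aligned them to GRCm39 with STAR and made the counts with featureCounts; versions, the annotation release and the strand setting are not given in the sources used here. From the deposited counts, genes were kept by edgeR's filterByExpr (minimum count 10, minimum total 15), scaled by TMM and tested with the quasi-likelihood test of edgeR 4.0.16 (R 4.3.3), with Benjamini-Hochberg adjustment over 17901 genes. Models of 6 siRNA groups gave the comparisons of letters, of same-letter siRNAs and of their differences, and a model of 3 conditions gave the pooled ones. Intervals are 95%. CPM uses TMM-scaled totals. Positions, exon lengths and promoter starts came from GENCODE M39 on GRCm39, the build of the files, in which 98.8% of the table's genes were found. The code was tested on simulated data. Alternatives were DESeq2 1.42.0, its size factors, no filter, the most counted feature left out, only the compared groups fitted, other Scramble references, single libraries left out and a replicate block; leaving out both Zfp598 siRNA A replicates 2 and 3 was chosen after seeing the data. The members and lists were chosen with earlier results of these data known. Comparisons of letters, of differences in effect and of conditions named the 5 largest rises, the 5 largest falls and 20 fixed members. For each knockdown siRNA against Scramble, only the 5 largest changes in the direction of most calls were named. Members called against the majority were named in every comparison. Sets called in several comparisons and the printed promoters were chosen after their values were seen.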

Additional observations from a re-analysis of the deposited data

Results flagged for a closer look

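Of 105 groups of a member's libraries in a condition tested for a library far from the rest, 2 held one, and chance alone flags about 1 in 20. Each group held both siRNAs of its condition. A difference between siRNAs widens the spread of a group and can hide such a library, so the low number does not measure library quality. Bub3 was at 98.5 CPM in Zfp598 siRNA A replicate 1, below the other Zfp598 KD libraries, and Kif20a was at 31.5 CPM in Scramble siRNA B replicate 3, above the other Scramble KD libraries.

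The knockdown effect differed between siRNAs by the interaction test of edgeR, which sets each siRNA against the Scramble siRNA of its own letter, although the letters tie nothing across conditions. For Fmr1 KD 5 members differed (siRNA B minus A, log2): Kif20a by 0.53, Ccnb2 by 0.44, Plk1 by 0.44, Kif15 by −0.61 and Ncaph by −0.35, against 12.2% of all genes called higher and 9.65% lower. For Zfp598 KD 35 members differed, all with the lower effect for siRNA B, against 11.9% of all genes. Compared with each other without Scramble, siRNA B against A gave 52 members higher for Fmr1 and 11 higher and 6 lower for Zfp598. The differences of the chromosome proteins were −1.58 for Top2a, −1.19 for Ncapg and −0.56 for Mki67. Among kinases and cyclins they were −1.29 for Aurkb, −0.96 for Cdk1, −0.48 for Ccnb1, −0.91 for Ccnb2 and −0.53 for Plk1. At the centromere and in the passenger complex they were −1.15 for Cenpa, −1.03 for Cenpf, −0.97 for Ndc80 and −0.75 for Birc5. Spindle, motor, cytokinesis and ubiquitin genes gave −1.14 for Ckap2, −0.90 for Tpx2, −0.55 for Kif11, −0.73 for Anln and −0.88 for Ube2c.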

How the results depend on the processing

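Of the counts of members called under an alternative, 264 stayed within 1.5 times the reported count with the same majority direction, 17 were larger, 17 smaller, and in 10 the majority direction turned; 8 medians over members moved by more than 1 SD of the members' values, all of them with another Scramble reference. Of values of single named members, 83 newly passed the threshold, 106 no longer passed it and 16 turned direction. For knockdown siRNAs against Scramble these values cover only 6 (Fmr1 A), 6 (Fmr1 B), 5 (Zfp598 A) and 5 (Zfp598 B) named members. The turns of the other members are therefore not among the 16. The comparisons of letters in Scramble and Fmr1 KD stayed at 44 to 47 and 51 to 52 with each library left out, and DESeq2 gave 47 and 52.

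Fitting only the groups compared gave 11 members for Zfp598 B against A, 2 for Zfp598 A against Scramble A and 9 for the difference in Fmr1 effect. Leaving out both Zfp598 A replicates 2 and 3 leaves only replicate 1 of that siRNA, so no counts are given from the 6 siRNA groups. In the model of 3 conditions it gave 1, 0 and 0 for pooled Fmr1 KD, pooled Zfp598 KD and Fmr1 against Zfp598 KD. Against both Scramble siRNAs the counts were 49 (Fmr1 A) and, with the majority direction turned, 14 (Fmr1 B), 5 (Zfp598 A) and 14 (Zfp598 B). Against the other Scramble siRNA they were 51 (Fmr1 A) and, turned, 46 (Fmr1 B), 33 (Zfp598 A) and 36 (Zfp598 B). A model of 6 groups, which leaves the spread between siRNAs out of the error, gave 24, 6 and 27 for pooled Fmr1 KD, pooled Zfp598 KD and Fmr1 against Zfp598 KD. The shares of all genes called by that model are not given here, so these counts cannot be read as particular to the members. DESeq2 gave 2 for pooled Fmr1 KD.

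With each library left out, counts ranged from 13 to 25 for Zfp598 B against A, 14 to 23 for Fmr1 A, 11 to 24 for Fmr1 B, 11 to 27 for Zfp598 A, 20 to 31 for Zfp598 B, 2 to 9 and 31 to 41 for the differences in Fmr1 and Zfp598 effect (the former mostly lower, at 3, 2 and 3, without Scramble B replicate 2, Fmr1 A replicate 2 or Fmr1 B replicate 3), 0 to 1 for pooled Fmr1 KD, 0 to 0 for pooled Zfp598 KD and 0 to 1 for Fmr1 against Zfp598 KD.

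Values of single named members that turned direction came from the Scramble reference. Against both Scramble siRNAs Ccnb1 was at −0.18 (Fmr1 A) and Nusap1 at 0.045 (Fmr1 B). Against the other one, Ccnb1 was at −0.59 (Fmr1 A); Bub1 at 0.51, Kif20b at 0.40, Kif15 at 0.66, Incenp at 0.38 and Nusap1 at 0.62 (Fmr1 B); Aurkb at −0.30, Cenpa at −0.070, Cdca8 at −0.49 and Top2a at −0.40 (Zfp598 A); Kif4 at 0.15, Ncapg at 0.23, Smc2 at 0.30 and Top2a at 0.057 (Zfp598 B).

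Replicate numbers did not pair the libraries: over 45 same-numbered pairs the mean correlation of deviations was 0.05 (−0.40 to 0.34), and in 0 of 15 pairs of groups were all correlations over 0.1. With a replicate block the counts were 47, 52 and 17 for the letter comparisons, 22 and 21 for Fmr1 A and B, 20 and 29 for Zfp598 A and B, and 6 and 35 for the differences in effect.

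Depth limits the low members most: Spc24 had a mean count of 122 per library.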
